A study of Mus musculus with 72 samples.

Results

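CD8+ T cells kept in DON, a glutamine analog, were compared between 48 h and 24 h of treatment. The 8 libraries are those titled for DON at 48 h, replicates A to D, and those titled for DON at 24 h, replicates A to D, out of 72 samples in the series. Every gene with enough counts to be tested entered the comparison, and no library was chosen by a measured value. The series asks how different ways of limiting glutamine use act on activated CD8+ T cells, by RNA-seq and by CUT&RUN for histone marks.

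DON cells at 48 h and DON cells at 24 h were OT-I mouse splenocytes with red cells lysed, given the ovalbumin peptide SIINFEKL at 10 ng/mL, recombinant human IL-2 at 100 IU/mL and DON at 1 µM in complete RPMI that contained glutamine. Glutamine-free cells at 48 h and 24 h received the same peptide and IL-2 in RPMI without glutamine. Vehicle cells at 48 h and 24 h received the same peptide and IL-2 with the solvent in complete medium. Each of these 6 groups has 4 libraries. All groups carry the OT-I T cell receptor transgene, which recognises that peptide on H-2Kb, and all received exogenous IL-2. The cultures began as whole splenocytes, and the labels name the sample a CD8+ T cell without describing a sort. They do not say whether replicates A to D came from separate mice or cultures, so every p-value below measures the spread among these libraries alone, and that spread may be technical.

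Glutamine gives its amide nitrogen to purine, pyrimidine, asparagine and hexosamine synthesis through the glutamine amidotransferases, and cells also turn it into glutamate. DON binds the active sites of these enzymes covalently. In cells short of an amino acid, uncharged tRNA activates the kinase GCN2, and translation of the transcription factor ATF4 then increases, with transcription of amino acid synthesis, transport and tRNA charging genes. A CD8+ T cell that meets its antigen grows, replicates its DNA and divides, and produces interferon gamma, chemokines and cytotoxic granule proteins under transcription factors such as T-bet and IRF4.

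Promoter stretches of 9 genes are given because each stands for a gene group whose change with time is described further on, and each holds a short element known from that group. All are RefSeq promoter sequence of build GRCm38.p6, written 5′ to 3′ on the strand of the gene and ending before the annotated start. Capitals mark the element in either orientation. In the promoters of Chac1, Atf3 and Asns, genes that ATF4 is known to induce, the element searched was TGATGNAA. In Irgm1 and Tgtp2, interferon-induced GTPases, it was GAAACNGAA, and in Mcm7, a subunit of the replicative helicase, it was the E2F motif TTTCCCGC or TTTGGCGC. In Ube2c, Mki67 and Fam83d, genes of dividing cells, it was TTTGAA, the core of the cell cycle homology region (CHR).
Chac1, chr2:119350998-119351107, plus strand: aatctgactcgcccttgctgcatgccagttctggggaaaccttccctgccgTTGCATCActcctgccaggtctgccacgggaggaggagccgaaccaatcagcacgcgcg
Atf3, chr1:191183385-191183494, minus strand: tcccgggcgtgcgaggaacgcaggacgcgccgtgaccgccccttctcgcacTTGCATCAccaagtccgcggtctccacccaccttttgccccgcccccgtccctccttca
Asns, chr6:7693210-7693319, minus strand: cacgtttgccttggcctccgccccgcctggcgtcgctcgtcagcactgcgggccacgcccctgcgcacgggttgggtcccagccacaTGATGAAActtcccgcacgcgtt
Irgm1, chr11:48871421-48871530, minus strand: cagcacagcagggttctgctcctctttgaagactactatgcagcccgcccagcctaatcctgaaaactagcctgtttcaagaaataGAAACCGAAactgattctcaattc
Tgtp2, chr11:49064224-49064333, minus strand: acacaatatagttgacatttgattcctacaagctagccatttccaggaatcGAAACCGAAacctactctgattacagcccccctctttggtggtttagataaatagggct
Mcm7, chr5:138171990-138172099, minus strand: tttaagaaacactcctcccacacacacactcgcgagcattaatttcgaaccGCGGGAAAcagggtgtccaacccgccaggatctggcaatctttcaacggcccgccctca
Ube2c, chr2:164769819-164769928, plus strand: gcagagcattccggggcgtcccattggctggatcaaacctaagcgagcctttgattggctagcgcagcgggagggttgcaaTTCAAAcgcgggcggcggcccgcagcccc
Mki67, chr7:135716420-135716529, minus strand: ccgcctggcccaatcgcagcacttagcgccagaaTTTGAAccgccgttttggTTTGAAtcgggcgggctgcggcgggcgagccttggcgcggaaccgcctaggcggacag
Fam83d, chr2:158767989-158768098, plus strand: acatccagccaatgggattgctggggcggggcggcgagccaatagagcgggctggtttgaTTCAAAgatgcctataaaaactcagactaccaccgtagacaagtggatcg

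Promoters in the RefSeq table run from 250 bases before to 50 bases after the start, and 10399 of the genes tested had an entry. The ATF4 element, read on both strands, was present in 11 of 29 promoters of the ATF4 and amino acid response list (37.9%) and in 3.97% of all 32851 promoters in the table, or 2.8% of those of tested genes. The interferon element was present in 7 of 10 promoters of the guanylate-binding and immunity-related GTPases (70.0%) and in 7 of 29 of the type I interferon-stimulated genes (24.1%), against 1.88% of all promoters and 2.08% of those of tested genes. An E2F motif was found in 12 of 35 promoters of the DNA replication list (34.3%) and in 1.56% of all and 3.44% of those of tested genes. The CHR core was found in 23 of 33 promoters of the mitosis and spindle list (69.7%) and in 17.9% of all and 14.7% of those of tested genes. Sterol, NRF2, NF-Y and E-box elements were also searched, and only a part is given here. The sterol element was found in 1 of 17 promoters of the cholesterol list (5.88%), against 1.24% of all and 1.39% of those of tested genes. The NRF2 element was found in 8 of 21 promoters of the NRF2 and glutathione list (38.1%), against 12.4% of all and 17.0% of those of tested genes. A match describes the letters in the window and is not evidence of binding.

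The 8 libraries held 25.6 to 43.6 M counts assigned to genes, with 23615 to 25998 genes detected in each. Replicate D of DON at 24 h was the shallowest and stood apart from its group: over the 9275 genes whose mean log2 CPM reached 3, its gap to the nearest other replicate exceeded Dixon's 95% critical share of the group's range at 9.79% of them, against 0.27% to 2.1% for the other 7 DON libraries. Replicate C of vehicle at 48 h (6.62%) and replicate D of the glutamine-free cells at 48 h (5.52%) also stood apart. Without replicate D of DON at 24 h, the counts of list members below moved by at most 5 genes in either direction, other than the ribosomal protein genes that rose, and a selection of these values is given. The CD8 T cell markers summed to 5558 to 5761 CPM in DON cells at 48 h and to 4448 to 4845 CPM at 24 h, with Cd8a at 1081 ± 25 CPM at 48 h and 864 ± 35.1 CPM at 24 h (SD, n = 4). Of 15 CD8 T cell markers tested, 8 rose, 2 fell (Trac and Cd247) and 5 did not pass, with a median log2 change of 0.20. Without replicate D of DON at 24 h, 3 fell. B cell markers were also present, with a sum of 743 to 801 CPM at 48 h and 494 to 736 CPM at 24 h, most of it Ighm, the heavy chain of IgM, at 678 ± 26.4 CPM at 48 h and 514 ± 65.2 CPM at 24 h. Igkc, the kappa light chain, fell to 2.24 ± 0.89 CPM at 48 h, against 37.5 ± 17.4 CPM at 24 h. Of 14 B cell markers tested, 3 rose (Cd79b, Ighd and Ighm) and 4 fell (Igkc, Ms4a1, Cd22 and Pax5), with a median log2 change of -0.77. Without replicate C of DON at 24 h, 1 fell. The sum is mainly the level of Ighm, so its rise cannot be read as more B cell RNA. Myeloid and dendritic markers summed to 60.1 to 72.5 CPM at 48 h and 63.8 to 125 CPM at 24 h, with 1 of 10 higher, 7 lower (4 without replicate C of DON at 24 h) and C1qb at 0 counts in the 48 h group. The NK marker list summed to 16.1 to 18.7 CPM at 48 h and 88.7 to 94.3 CPM at 24 h, with Klra8 at 0 counts in both groups. That list contains Prf1 and Eomes, which CD8+ T cells also express. In bulk RNA, fewer cells of a type and less RNA per cell cannot be told apart, and the part of other cell types in the changes below was not tested.

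The expression state of DON cells changed at most tested genes between 24 h and 48 h. Of 16988 genes, 10655 passed at an adjusted p under 0.05 (62.7%, quasi-likelihood test of edgeR, adjusted by Benjamini and Hochberg), and 5216 were higher at 48 h (30.7%) while 5439 were lower (32%). A change of at least 2-fold was called for 1800 genes upward (10.6%) and 1466 downward (8.63%). The CPM ranges of the groups did not overlap at 10222 genes (60.2%). Over the same interval vehicle cells changed at 6871 genes (40.4%) and glutamine-free cells at 8959 (52.7%). Without replicate D of DON at 24 h, 10183 genes passed for DON.

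Genes for secreted effector proteins headed the declines. The 12 largest changes in each direction were taken among genes whose mean log2 CPM over the 24 libraries of the fit reached 3. Their DON groups also had to be without overlap, so the separation described for these genes is a condition of the choice. Per-library values are library-size-adjusted counts (CPM, with TMM factors) in the order of replicates A to D, and errors of log2 fold changes are SE. Sums over a list, also those above, are CPM of library totals without TMM factors, so they are on another scale. The TMM factors of the DON libraries were 1.028 to 1.086. Where a gene is given by its group means, the error is the SD of 4 libraries, and the gene passed the same test unless stated otherwise. Il3, encoding the cytokine interleukin 3 (chr11:54265303-54267277 in mm10), had 0.114, 0.0938, 0.107 and 0.0892 CPM at 48 h, against 15, 12.6, 13.4 and 14.7 CPM at 24 h. All 4 libraries at 48 h were close to the detection floor and far below those at 24 h, with a log2 fold change of -7.07 ± 0.22 (adjusted p = 8.38e-19, edgeR). Ifng, encoding interferon gamma (chr10:118441046-118445892), had 1.16, 1.95, 1.94 and 1.07 CPM at 48 h, against 113, 141, 146 and 129 CPM at 24 h. The groups were separated by a wide gap, and the log2 fold change was -6.43 ± 0.28 (adjusted p = 1.25e-14, edgeR). In the annotation 25.9% of its exonic bases overlap another gene, and without a strand option reads of the overlapping part cannot be assigned with certainty. Il2, a growth factor of activated T cells, had 1.76, 1.64, 2.18 and 1.36 CPM at 48 h, against 41.5, 39.7, 37.5 and 45.4 CPM at 24 h. No library of either group reached the range of the other, and the log2 fold change was -4.57 ± 0.15. Prf1, encoding the pore-forming protein perforin, had 2.41, 2.39, 2.64 and 2.45 CPM at 48 h, against 38.5, 35.2, 35.4 and 47.6 CPM at 24 h. Its libraries at 48 h lay close together and below every library at 24 h, with a log2 fold change of -3.98 ± 0.11 (adjusted p = 1.23e-19, edgeR). Crabp2, a carrier of retinoic acid, averaged 2.02 ± 0.416 CPM at 48 h and 118 ± 5.35 CPM at 24 h (SD, n = 4 each). The chemokine genes Ccl4 and Ccl3 fell by 4.05 and 3.75 on the log2 scale. Serpinb9, an inhibitor of granzyme B, fell to 30.5 ± 4.75 CPM at 48 h, against 359 ± 18.8 CPM at 24 h. Gpr183, a receptor for oxysterols, the interferon-induced genes Irf7 and Xaf1, and Chac1 complete the 12 largest declines, with log2 fold changes between -4.17 and -3.57. Chac1 was low in DON cells, at 0.241 ± 0.197 CPM at 48 h and 3.24 ± 0.61 CPM at 24 h. It reached the required mean level through glutamine-free cells, at 21.4 ± 1.46 CPM at 48 h and 19.3 ± 0.548 CPM at 24 h.

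Adhesion, calcium-binding and lymphotoxin genes were among the 12 largest increases. Itgae, encoding the integrin alpha E chain CD103, which binds E-cadherin on epithelium (chr11:73090583-73147446), had 42.5, 42.3, 36.7 and 28.5 CPM at 48 h, against 2.62, 2.4, 2.49 and 3.12 CPM at 24 h. Every library at 48 h was higher than every library at 24 h, with a log2 fold change of 3.83 ± 0.15 (adjusted p = 5.22e-17, edgeR). Ctla2a, which resembles the propeptide of cysteine proteases, had 18, 18.2, 21.8 and 18.3 CPM at 48 h, against 0.643, 0.769, 1.47 and 0.304 CPM at 24 h. Its log2 fold change of 4.48 ± 0.24 was the highest of the 12, and the groups were again apart. S100a6, a calcium-binding protein, had 25.4, 25.9, 25 and 17.6 CPM at 48 h, against 1.7, 1.25, 2.02 and 1.41 CPM at 24 h. Replicate D was the lowest at 48 h and still lay above all libraries at 24 h (log2 fold change 3.86 ± 0.25). Ltb, encoding the membrane subunit of lymphotoxin, had 266, 232, 202 and 233 CPM at 48 h, against 25.2, 23.8, 23.9 and 20.5 CPM at 24 h. Its groups did not overlap, and the log2 fold change was 3.32 ± 0.12. Izumo1r, encoding a folate receptor family protein, averaged 39.2 ± 3.48 CPM at 48 h and 2.85 ± 0.268 CPM at 24 h. Psrc1, a microtubule-associated protein of the mitotic spindle, averaged 76.4 ± 4.16 CPM at 48 h and 6.39 ± 1.28 CPM at 24 h. The other increases in this set were Maats1, Lzts2, Tspoap1, Tesc, Gucy1a1 and St14, with log2 fold changes from 3.24 to 3.67.

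**Figure D1:**
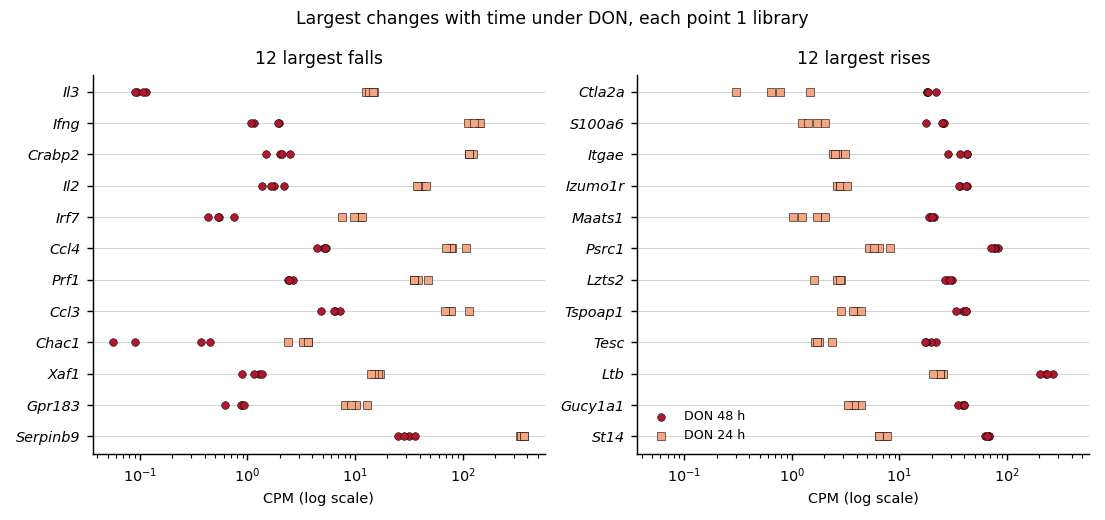
CPM on a log axis of the 12 genes with the largest declines and the 12 with the largest increases in DON cells, 1 point per library, with 48 h and 24 h in separate colours. The points of the groups do not overlap at any of the 24 genes, which was a condition for choosing them. Il3 at 48 h is near the floor, and replicate A of Chac1 at 48 h, at 0.0568 CPM, lies below every Il3 point.

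Gene groups moved in separate directions, and the median log2 change of a list is given beside that of all genes tested, which was -0.01 in DON cells. Among the lists plotted, chemokines (median -3.24, 0 of 10 tested members higher and 9 lower), effector cytokines (-2.45, 3 higher and 15 lower of 20) and type I interferon-stimulated genes (-1.52, 0 higher and 32 lower of 39) had the lowest medians. Genes of recent receptor signalling (-1.12), effector differentiation factors (-1.04), ribosome biogenesis (-0.80), aminoacyl-tRNA synthetases (-0.76) and glutamine amidotransferases (-0.74) followed. The 31 p53 targets (0.65), mitosis and spindle genes (0.61) and S100 and annexin genes (0.56) had the highest. Among lists not plotted, markers of myeloid and dendritic cells had a median of -1.54, markers of NK cells -0.82 and markers of B cells -0.77. List counts stand beside the 30.7% of all genes tested that rose and the 32% that fell. The lists were chosen with earlier results of these data known, so these counts describe the lists and are not independent evidence of a direction.

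**Figure D2:**
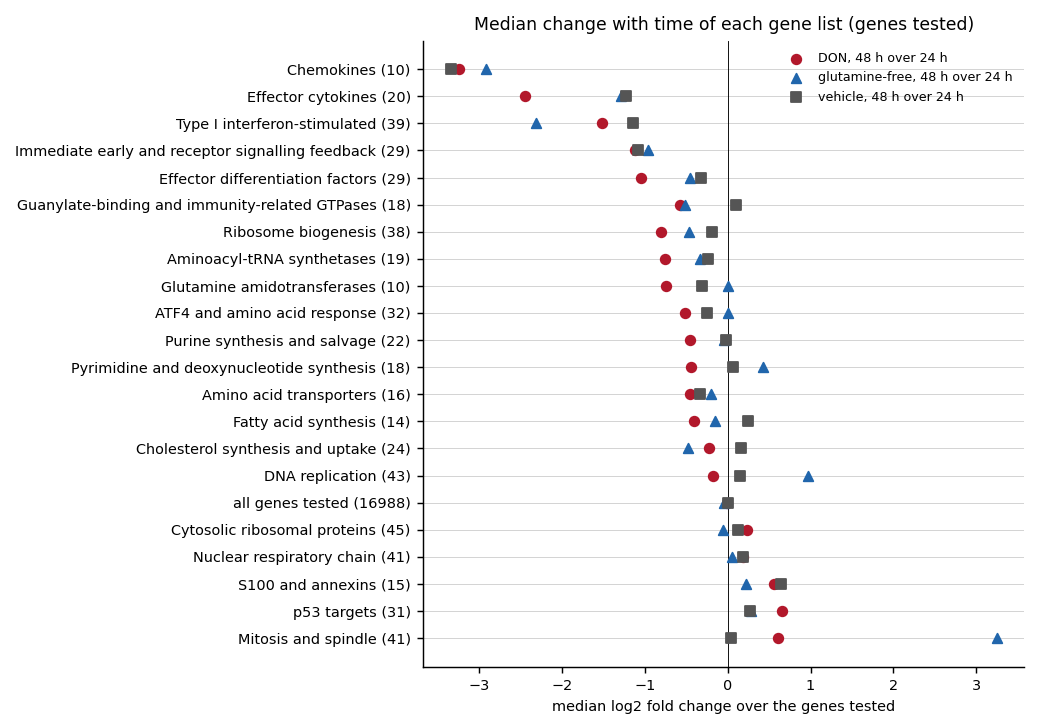
Median log2 fold change of 48 h over 24 h for 21 gene lists and for all genes tested, with DON, glutamine-free and vehicle cells as separate symbols and the number of tested genes in brackets. In DON cells ribosome biogenesis sits at -0.80 and glutamine amidotransferases at -0.74, and the glutamine-free median of mitosis and spindle genes sits at 3.25.

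Transcripts of effector proteins were lower at 48 h in most cases. Gzmb, encoding granzyme B, a serine protease delivered into target cells, had 794, 850.2, 905 and 749 CPM at 48 h, against 2156, 2154, 2092 and 1849.8 CPM at 24 h. All libraries at 48 h were below all at 24 h, although the gene stayed among the abundant transcripts, with a log2 fold change of -1.32 ± 0.15 (adjusted p = 6.12e-08, edgeR). Of 15 granule genes tested, 4 rose and 7 fell. Srgn, the proteoglycan that packs granule proteins, averaged 209 ± 11.3 CPM at 48 h and 443 ± 15.5 CPM at 24 h. Ctsw, a cysteine protease of cytotoxic cells, moved the other way and averaged 143 ± 6.96 CPM at 48 h and 30.1 ± 4.25 CPM at 24 h (log2 fold change 2.25 ± 0.10). Among cytokines, Tnf, encoding tumour necrosis factor, had 5.57, 6.24, 5.81 and 6.96 CPM at 48 h, against 11.4, 10.5, 9.24 and 11.2 CPM at 24 h. Its decline of 0.78 on the log2 scale was small beside those of Ifng and Il2, and the groups did not overlap. Lif, a cytokine of the interleukin 6 family, averaged 21.5 ± 1.86 CPM at 48 h and 86.9 ± 4.5 CPM at 24 h. Fasl, the death ligand for Fas, had 1.05, 1.15, 0.959 and 0.825 CPM at 48 h, against 10.8, 12, 10.6 and 12.2 CPM at 24 h. Its groups were far apart, with a log2 fold change of -3.51 ± 0.15. Among chemokines Xcl1, which attracts cross-presenting dendritic cells, averaged 21 ± 2.24 CPM at 48 h and 76 ± 4.64 CPM at 24 h, and Cxcl10, a ligand of CXCR3, 1.38 ± 0.374 CPM at 48 h and 9.17 ± 1.32 CPM at 24 h. Prf1 and Eomes are also in the NK marker list, whose summed level is given above.

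**Figure D3:**
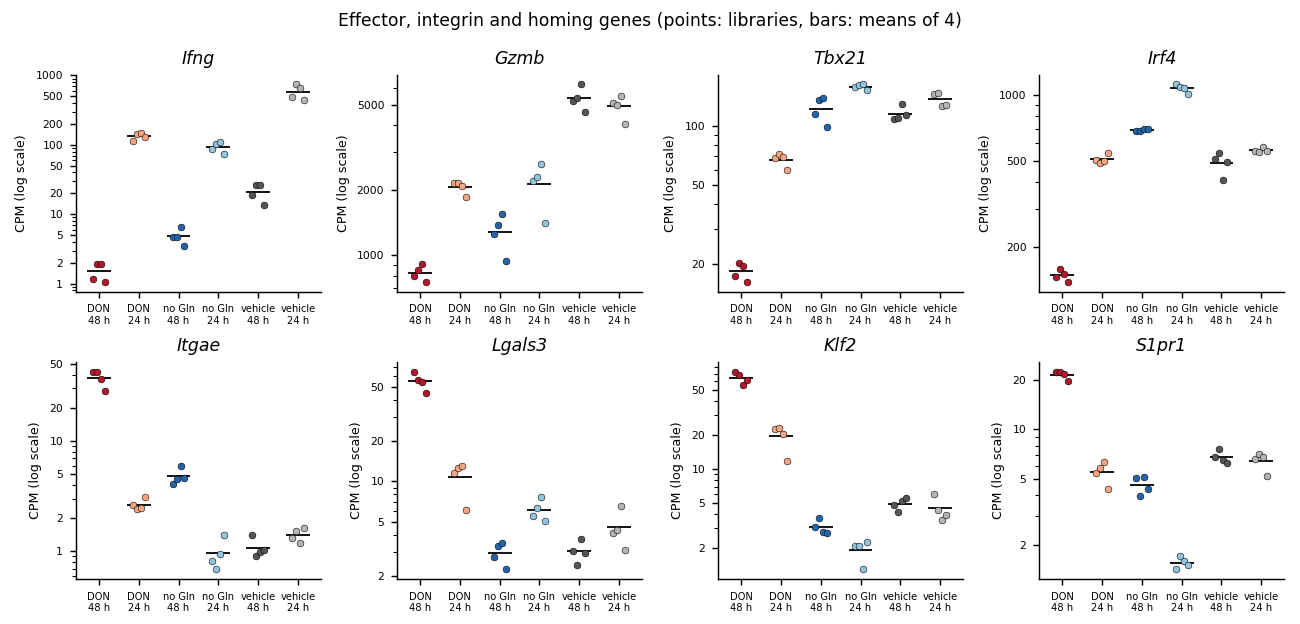
CPM on log axes of 8 effector, integrin and homing genes by library, with DON, glutamine-free and vehicle cells side by side and 48 h left of 24 h in each condition, and bars for the means of 4. Ifng is lower at 48 h in all 3 conditions, and Klf2 is highest in DON cells at 48 h.

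Transcription factors of the effector programme declined with the effector genes: 20 of 29 tested fell, 3 rose and 6 did not pass. Tbx21, encoding T-bet, had 17.4, 20.2, 19.4 and 16.2 CPM at 48 h, against 68.6, 71.9, 69.1 and 60 CPM at 24 h. Each library at 48 h was lower than each at 24 h, with a log2 fold change of -1.88 ± 0.10 (adjusted p = 5.39e-15, edgeR). Irf4, induced in proportion to T cell receptor signal strength, had 146, 159, 151 and 139 CPM at 48 h, against 502, 485, 497 and 539 CPM at 24 h. The groups were well separated (log2 fold change -1.76 ± 0.07). Eomes, the T-box factor related to T-bet, averaged 10.1 ± 0.386 CPM at 48 h and 43.4 ± 4.53 CPM at 24 h, and Bhlhe40, a transcriptional repressor, 89.9 ± 7.83 CPM at 48 h and 381 ± 9.3 CPM at 24 h. Stat5a, which carries IL-2 signals, averaged 80.4 ± 2 CPM at 48 h and 224 ± 22 CPM at 24 h, and Irf8 92.9 ± 4.57 CPM at 48 h and 338 ± 33.9 CPM at 24 h. Batf3, a partner of IRF4 in AP-1 complexes, averaged 18 ± 2.1 CPM at 48 h and 16.5 ± 2.81 CPM at 24 h, which did not pass (adjusted p = 0.64, edgeR). Genes induced by recent receptor signalling were also lower, with 24 of 29 down and 2 up (1 up without replicate C of DON at 24 h or without any single replicate at 48 h). The median of this list was -1.12 in DON, -0.96 in glutamine-free and -1.08 in vehicle cells. Nr4a1, an orphan receptor and early reporter of antigen signalling, had 23.9, 26.3, 21.7 and 23.1 CPM at 48 h, against 115, 104, 100 and 106 CPM at 24 h. None of the 48 h libraries reached the 24 h range (log2 fold change -2.16 ± 0.08). Nr4a3 averaged 46.8 ± 1.72 CPM at 48 h and 233 ± 19.3 CPM at 24 h, the AP-1 member Fosl2 11.6 ± 1.3 CPM at 48 h and 46.4 ± 4.22 CPM at 24 h, and Cd69, which retains cells in lymphoid tissue, 86.5 ± 7.25 CPM at 48 h and 187 ± 9.95 CPM at 24 h. At 24 h replicate D was the lowest of its group for Stat5a, Batf3 and Cd69.

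Amino acid response genes were lower at 48 h. Of 32 tested genes of the ATF4 list, 22 fell, 4 rose and 6 did not pass, and the median was -0.52. Chac1, an enzyme that degrades glutathione, had 0.0568, 0.445, 0.373 and 0.0892 CPM at 48 h, against 3.65, 3.29, 3.64 and 2.36 CPM at 24 h. At 48 h replicates A and D were lower than B and C, and all were below the 24 h group, with a log2 fold change of -3.74 ± 0.31 (adjusted p = 1.70e-10, edgeR). Atf3, a stress-induced transcription factor, had 4.32, 5.67, 4.95 and 4.42 CPM at 48 h, against 42.4, 39.9, 47 and 40 CPM at 24 h. The groups did not overlap (log2 fold change -3.13 ± 0.10). Trib3, a pseudokinase that feeds back on ATF4, had 4.34, 3.94, 3.68 and 4.06 CPM at 48 h, against 19.4, 12.4, 16.4 and 15.7 CPM at 24 h. The libraries at 48 h lay close together and below every library at 24 h. Asns, asparagine synthetase, which is itself a glutamine amidotransferase, had 23.5, 29.5, 31.5 and 27.9 CPM at 48 h, against 57.3, 38.3, 50.8 and 47.3 CPM at 24 h. The ranges were apart, and the log2 fold change was -0.79 ± 0.12. Cth, which makes cysteine from cystathionine, averaged 4.36 ± 0.835 CPM at 48 h and 24 ± 4.94 CPM at 24 h, and Mthfd2, a mitochondrial folate enzyme, 306 ± 6.03 CPM at 48 h and 498 ± 16.1 CPM at 24 h. Nupr1, a stress-response chromatin protein, averaged 0.27 ± 0.0319 CPM at 48 h and 0.911 ± 0.297 CPM at 24 h. The promoter stretches of Chac1, Atf3 and Asns given above carry the ATF4 element.

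Of 19 aminoacyl-tRNA synthetases tested, 17 fell and 1 rose. Rars, which charges tRNA with arginine, had 95.3, 101, 107 and 103 CPM at 48 h, against 242, 251, 247 and 319 CPM at 24 h. Replicate D was the highest at 24 h, and the groups did not overlap (log2 fold change -1.38 ± 0.08). Farsb, a subunit for phenylalanine, averaged 63.8 ± 1.15 CPM at 48 h and 145 ± 10.2 CPM at 24 h, Cars, for cysteine, 58.5 ± 2.26 CPM at 48 h and 116 ± 6.22 CPM at 24 h, and Tars, for threonine, 117 ± 2.9 CPM at 48 h and 227 ± 11 CPM at 24 h. Amino acid transporters fell at 11 of 16 members and rose at 3. Slc7a5, which imports large neutral amino acids, had 129.8, 137, 129.7 and 127 CPM at 48 h, against 236, 226, 237 and 234 CPM at 24 h. The replicates were tight in both groups, and the log2 fold change was -0.83 ± 0.08. Slc1a4, a carrier of alanine, serine and cysteine, averaged 5.5 ± 0.436 CPM at 48 h and 23.8 ± 1.94 CPM at 24 h, and Slc7a1, which imports arginine, 86.9 ± 5.02 CPM at 48 h and 268 ± 11.7 CPM at 24 h. The members with the element are 4 of 11 synthetase promoters with an entry (36.4%).

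**Figure D4:**
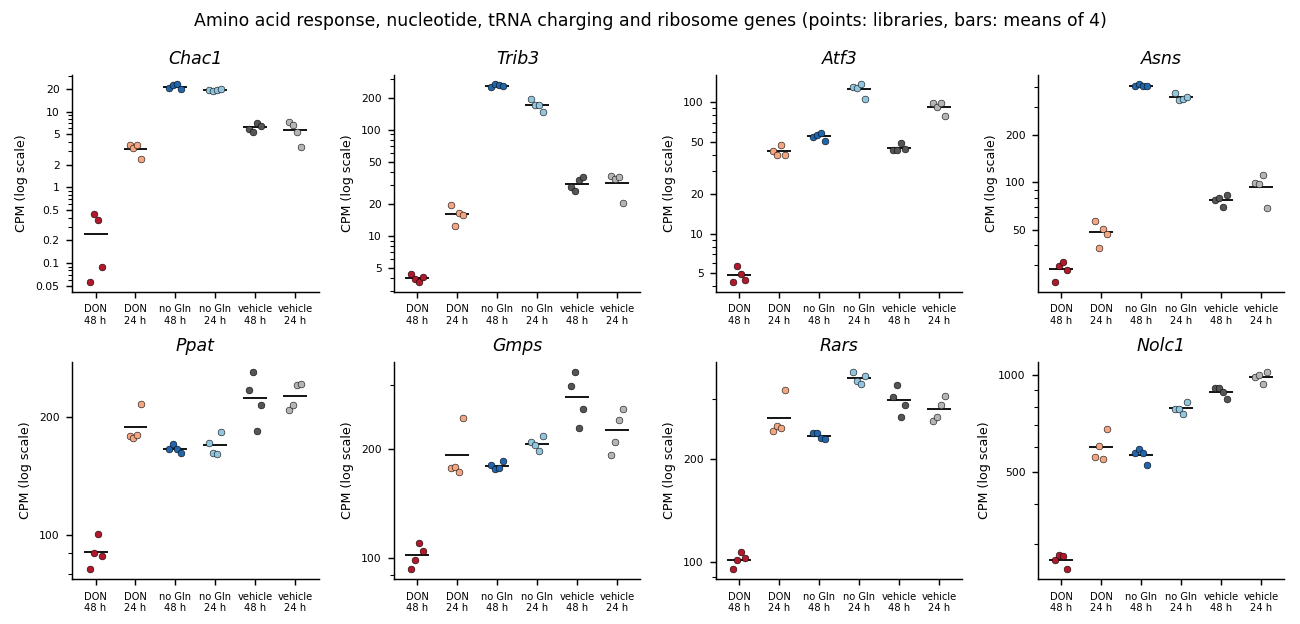
CPM on log axes by library for 8 genes of the amino acid response, nucleotide synthesis, tRNA charging and ribosome lists, with bars for the means of 4, with DON, glutamine-free and vehicle cells side by side and 48 h left of 24 h. In DON cells the 48 h points lie below the 24 h points for each gene, and the glutamine-free points of Asns lie above those of the other conditions.

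The enzymes that use the glutamine amide, which DON is known to bind, were mostly lower in transcript at 48 h, with 8 of 10 down, 1 up and 1 not passing. Ppat, the entry enzyme of purine synthesis, had 82.2, 90.4, 101 and 88.7 CPM at 48 h, against 179, 177, 179.6 and 216 CPM at 24 h. The groups were apart, replicate D being highest at 24 h, with a log2 fold change of -1.05 ± 0.09 (adjusted p = 5.61e-11, edgeR). Cad, which starts pyrimidine synthesis, had 333, 336, 311 and 317 CPM at 48 h, against 518, 532, 499 and 542 CPM at 24 h. Its ranges were apart (log2 fold change -0.69 ± 0.06). Pfas, a later purine enzyme, averaged 86.5 ± 3.97 CPM at 48 h and 172 ± 8.02 CPM at 24 h, Gmps, which makes GMP, 102 ± 7.17 CPM at 48 h and 193 ± 33.8 CPM at 24 h, and Ctps, which makes CTP, 134 ± 8.51 CPM at 48 h and 197 ± 10.9 CPM at 24 h. Gfpt1, the entry enzyme of hexosamine synthesis, averaged 86.6 ± 3.94 CPM at 48 h and 118 ± 8.83 CPM at 24 h, the smallest decline among those named here (log2 fold change -0.44 ± 0.08).

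Nucleotide synthesis as a whole showed the same sign at most members. In the purine list 17 of 22 fell and 4 rose, and in the pyrimidine and deoxynucleotide list 13 of 18 fell and 4 rose. Gart, a trifunctional purine enzyme, averaged 203 ± 6.5 CPM at 48 h and 384 ± 41.8 CPM at 24 h, and Umps, which makes UMP, 109.7 ± 3.1 CPM at 48 h and 200.2 ± 12.2 CPM at 24 h. Tyms, thymidylate synthase, averaged 59.6 ± 2.66 CPM at 48 h and 106 ± 8.4 CPM at 24 h. In serine and one-carbon metabolism 11 of 17 fell and 3 rose, with the cytosolic folate enzymes Mthfd1 at 231 ± 6.04 CPM at 48 h and 402 ± 15.3 CPM at 24 h and Shmt1 at 97.2 ± 4.38 CPM at 48 h and 168 ± 6.14 CPM at 24 h.

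Ribosome biogenesis genes declined almost throughout: 36 of 38 fell, 1 rose and 1 did not pass. The 1 that rose did not pass without replicate A or D of DON at 24 h or without replicate A, B or C of DON at 48 h. Nolc1, a nucleolar chaperone of small nucleolar RNPs, had 268, 278, 276 and 251 CPM at 48 h, against 560.0, 602, 549 and 679.6 CPM at 24 h. The ranges were far apart, and the log2 fold change was -1.16 ± 0.06 (adjusted p = 1.15e-14, edgeR). Polr1b, a subunit of RNA polymerase I, had 67.5, 72.5, 68.9 and 67.4 CPM at 48 h, against 162, 167, 161 and 169 CPM at 24 h. Every replicate at 48 h was lower (log2 fold change -1.25 ± 0.05). Ddx18, a nucleolar helicase, averaged 66.5 ± 2.76 CPM at 48 h and 136 ± 15.1 CPM at 24 h, and Utp4, of the small subunit processome, 101 ± 6.43 CPM at 48 h and 208 ± 9.33 CPM at 24 h. The polyamine enzymes Odc1, ornithine decarboxylase, at 391 ± 14.6 CPM at 48 h and 871 ± 77.4 CPM at 24 h and Srm, spermidine synthase, at 211 ± 11.1 CPM at 48 h and 435 ± 26.6 CPM at 24 h fell, within a list of 11 of which 5 fell and 2 rose. The structural proteins of the ribosome did not follow: 20 of 45 tested were called higher and 6 lower, with 10 higher and 5 lower without replicate D of DON at 24 h, and 8 higher and 5 lower without replicate A of DON at 48 h. Their summed level was 53733 to 59915 CPM at 48 h and 39942 to 46145 CPM at 24 h.

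Most of the mitotic genes listed rose while several replication genes fell. In the mitosis and spindle list 24 of 41 rose, 4 fell and 13 did not pass (28 and 4 without replicate D of DON at 24 h). The 4 that fell were Pttg1, Smc4, Smc2 and Cdk1. Ccnb2, encoding the mitotic cyclin B2, had 97, 97.7, 95 and 102 CPM at 48 h, against 23.4, 25.1, 25.8 and 25.2 CPM at 24 h. All libraries at 48 h were well above all at 24 h, with a log2 fold change of 1.98 ± 0.07 (adjusted p = 3.32e-18, edgeR). Cenpa, the centromeric histone, had 175, 174, 171 and 184 CPM at 48 h, against 72.6, 76.6, 71.7 and 73.6 CPM at 24 h. Its groups did not overlap (log2 fold change 1.26 ± 0.07). Cdc25b, a phosphatase that activates mitotic kinases, averaged 155 ± 6.31 CPM at 48 h and 66.9 ± 4 CPM at 24 h, and Ube2c, the ubiquitin-conjugating enzyme of the anaphase-promoting complex, 187 ± 8.27 CPM at 48 h and 77.9 ± 4.19 CPM at 24 h, with 22.8% of its exonic bases shared with another gene. Plk1, a mitotic kinase, averaged 102 ± 4.62 CPM at 48 h and 56.6 ± 10.4 CPM at 24 h. Mki67, the Ki-67 proliferation marker, had 504, 502, 528 and 546 CPM at 48 h, against 430.4, 479.8, 451 and 598 CPM at 24 h. The ranges overlapped, and the gene did not pass (adjusted p = 0.579, edgeR).

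In the DNA replication list 22 of 43 fell, 6 rose and 15 did not pass, with a median of -0.18. Mcm7, a helicase subunit, had 285, 291, 266 and 269.8 CPM at 48 h, against 482, 518, 465 and 521 CPM at 24 h. The groups were apart (log2 fold change -0.84 ± 0.06). Orc1, of the origin recognition complex, averaged 24.5 ± 1.93 CPM at 48 h and 47.1 ± 1.4 CPM at 24 h, and Chaf1b, a chaperone that deposits histones on new DNA, 38.1 ± 0.399 CPM at 48 h and 61.1 ± 3.85 CPM at 24 h. E2f2, an activator E2F, rose and averaged 75.2 ± 5.36 CPM at 48 h and 44.1 ± 1.79 CPM at 24 h. In the list of G1 cyclins and cyclin-dependent kinase inhibitors 6 of 20 rose and 7 fell. Among the inhibitors Cdkn1b, encoding p27, averaged 53.6 ± 4.5 CPM at 48 h and 31 ± 2.27 CPM at 24 h, Cdkn2d, encoding p19, 34.2 ± 0.861 CPM at 48 h and 19.4 ± 1.29 CPM at 24 h, and Cdkn1a, encoding p21, 26.4 ± 2.59 CPM at 48 h and 11.4 ± 2.85 CPM at 24 h, all 3 higher at 48 h. Inhibitors with few counts fell, Cdkn2a to 0.395 ± 0.0827 CPM at 48 h, against 1.49 ± 0.339 CPM at 24 h, and Cdkn2b to 0.0264 ± 0.0234 CPM at 48 h, against 0.561 ± 0.151 CPM at 24 h. Ccnd2, a cyclin of early division, fell to 370.1 ± 10.4 CPM at 48 h, against 554 ± 13.2 CPM at 24 h. Of 10 tested genes for MAX, its partners and related factors, 5 rose and 4 fell. Mga, Mlx, Mnt and Mlxip fell, at log2 fold changes of -0.47, -0.35, -0.19 and -0.16. Among those that rose, Mxd4, a repressor that competes for MAX, averaged 107 ± 9.9 CPM at 48 h and 13.6 ± 2.44 CPM at 24 h, a log2 fold change of 2.96 ± 0.15, and Mxd3 17.2 ± 2.4 CPM at 48 h and 5.64 ± 0.533 CPM at 24 h.

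**Figure D5:**
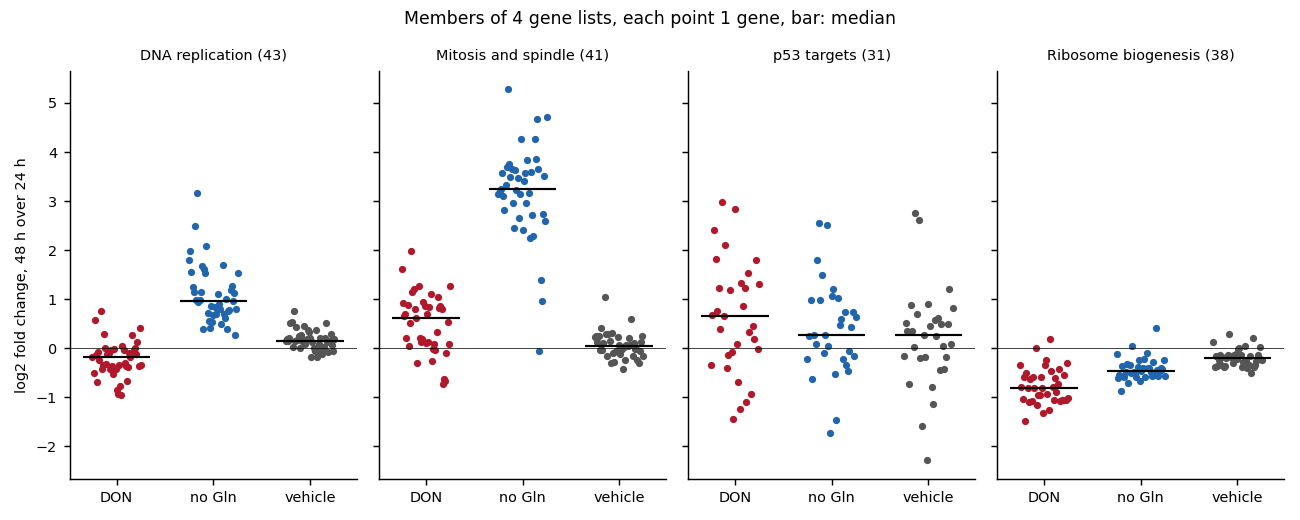
Log2 fold change of 48 h over 24 h for each tested member of the DNA replication, mitosis and spindle, p53 target and ribosome biogenesis lists, 1 point per gene with a bar at the median, with DON, glutamine-free and vehicle cells in separate columns. The glutamine-free members of the mitosis list centre on 3.25, against 0.61 in DON and 0.04 in vehicle cells.

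Known p53 targets were higher at 20 of 31 members and lower at 7. Bbc3, encoding the pro-apoptotic protein PUMA, had 24.7, 22.6, 18.9 and 19.4 CPM at 48 h, against 4.5, 3.51, 4.13 and 3.88 CPM at 24 h. The groups did not overlap (log2 fold change 2.41 ± 0.13, adjusted p = 1.58e-14, edgeR). Sesn1, a sestrin that restrains mTORC1, had 86.1, 88.4, 89.1 and 83.9 CPM at 48 h, against 30.2, 30.4, 30.7 and 28.8 CPM at 24 h. Replicates were tight and the groups apart (log2 fold change 1.53 ± 0.06). Btg2, an antiproliferative adaptor of mRNA decay, averaged 76 ± 2.54 CPM at 48 h and 21.7 ± 2.17 CPM at 24 h, and Gtse1, a microtubule-binding regulator of p53, 93.9 ± 5.21 CPM at 48 h and 41.1 ± 1.72 CPM at 24 h. Apoptosis regulators were divided, with 8 of 29 higher and 14 lower. Bcl2, which holds apoptosis back, averaged 157 ± 2.95 CPM at 48 h and 64.7 ± 4.81 CPM at 24 h. Bcl2 rose by 1.28 in DON, 1.47 in vehicle and 1.51 in glutamine-free cells on the log2 scale, and neither difference from DON passed. Its relative Bcl2a1d averaged 6.42 ± 0.803 CPM at 48 h and 35.3 ± 0.631 CPM at 24 h, Birc3, an inhibitor of apoptosis protein, 48.5 ± 0.336 CPM at 48 h and 100.0 ± 1.73 CPM at 24 h, and the pro-apoptotic Bcl2l11, encoding BIM, 64.7 ± 4.8 CPM at 48 h and 115 ± 3.51 CPM at 24 h. Bcl2a1d belongs to a family of near-identical copies, so its counts are uncertain.

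Lipid, glucose and secretory pathway genes fell at more members than rose. In the cholesterol list 15 of 24 fell and 3 rose. Hmgcs1, which commits carbon to the mevalonate pathway, had 44, 49.6, 54.6 and 48.9 CPM at 48 h, against 113, 115, 112 and 169 CPM at 24 h. The groups did not overlap, and replicate D was highest at 24 h (log2 fold change -1.37 ± 0.12). Sqle, which makes squalene epoxide, averaged 36.5 ± 2.6 CPM at 48 h and 81 ± 8.3 CPM at 24 h. Insig1, the sterol-induced brake on SREBP, averaged 28.8 ± 1.77 CPM at 48 h and 69.6 ± 9.54 CPM at 24 h. Fatty acid synthesis fell at 9 of 14 members and rose at 4, with Fasn, fatty acid synthase, at 267 ± 19.1 CPM at 48 h and 444 ± 15.9 CPM at 24 h, Acaca, acetyl-CoA carboxylase, at 46.3 ± 1.94 CPM at 48 h and 81.7 ± 2.69 CPM at 24 h, and Acsl3, which activates fatty acids, at 3.47 ± 0.6 CPM at 48 h and 18.5 ± 1.69 CPM at 24 h.

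Glycolysis and HIF1 target genes fell at 15 of 32 members and rose at 9. Hk2, the inducible hexokinase, had 51.9, 55.4, 52.8 and 46.1 CPM at 48 h, against 204, 203, 197 and 218 CPM at 24 h. The libraries at 48 h lay far below those at 24 h, with a log2 fold change of -1.99 ± 0.07 (adjusted p = 5.72e-18, edgeR). Pfkp, the platelet-type phosphofructokinase, averaged 145 ± 4.88 CPM at 48 h and 333 ± 24.8 CPM at 24 h, and Slc16a1, a lactate transporter, 64.7 ± 6.13 CPM at 48 h and 138 ± 13.5 CPM at 24 h. Of 24 chaperones and unfolded protein response genes of the ER, 14 fell and 2 rose. Hspa5, encoding the chaperone BiP, had 238, 255, 267 and 238 CPM at 48 h, against 736, 759.6, 767 and 964 CPM at 24 h. All libraries at 48 h lay far below those at 24 h, and the log2 fold change was -1.69 ± 0.07. Pdia4, a disulfide isomerase, averaged 40.9 ± 3.29 CPM at 48 h and 84.5 ± 5.96 CPM at 24 h. In the NRF2 and glutathione list 10 of 25 fell and 6 rose, with Txnrd1, thioredoxin reductase, at 91.3 ± 4.46 CPM at 48 h and 165 ± 11.3 CPM at 24 h, and Gsr, glutathione reductase, at 40.6 ± 1.91 CPM at 48 h and 67.4 ± 1.93 CPM at 24 h.

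Respiratory chain genes of the nucleus rose at 21 of 41 members and fell at 3 (13 and 3 without replicate C of DON at 24 h), with a median of 0.19. Cox4i1, a subunit of cytochrome oxidase, averaged 619.8 ± 34.9 CPM at 48 h and 369.6 ± 29.7 CPM at 24 h, and Uqcrc1, of complex III, 402 ± 20.3 CPM at 48 h and 284 ± 18.2 CPM at 24 h. The table gives 0 counts to all 37 mitochondrially encoded genes, so these were not analysed here. In the lysosome and autophagy list 13 of 32 rose and 7 fell. Tfeb, which activates lysosomal genes, had 27.5, 24.5, 23.3 and 25 CPM at 48 h, against 5.99, 7.57, 7.46 and 5.51 CPM at 24 h. The groups did not overlap (log2 fold change 1.91 ± 0.13). Ctsa, a lysosomal protective protein, averaged 104 ± 3.58 CPM at 48 h and 54.8 ± 8.15 CPM at 24 h, and Npc1, a lysosomal cholesterol exporter, 80.4 ± 4.03 CPM at 48 h and 45.1 ± 4.6 CPM at 24 h.

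Interferon-stimulated genes declined as a group, with 32 of 39 type I members lower, none higher and 7 not passing (1 higher without replicate A of DON at 24 h). Irf7, the factor that amplifies type I interferon, had 0.426, 0.539, 0.746 and 0.535 CPM at 48 h, against 11.1, 9.79, 11.7 and 7.64 CPM at 24 h. All 48 h libraries were below 1 CPM (log2 fold change -4.17 ± 0.27). Xaf1, an interferon-induced pro-apoptotic protein, averaged 1.17 ± 0.212 CPM at 48 h and 15.6 ± 1.33 CPM at 24 h, and Slfn8 3.71 ± 0.217 CPM at 48 h and 29.4 ± 0.904 CPM at 24 h. Parp14, an ADP-ribosyltransferase, averaged 22.1 ± 0.501 CPM at 48 h and 60.5 ± 1.64 CPM at 24 h, and Slfn2, needed for T cell quiescence, 140.1 ± 4.03 CPM at 48 h and 316 ± 25.1 CPM at 24 h. Slfn1 averaged 42.7 ± 3.5 CPM at 48 h and 33.7 ± 4.96 CPM at 24 h and did not pass (adjusted p = 0.0559, edgeR). Of the 18 guanylate-binding and immunity-related GTPases, which interferon gamma induces, 15 fell and 2 rose. Irgm1, a regulator of that family, had 40.5, 39.2, 40.1 and 36.8 CPM at 48 h, against 120.2, 114, 122 and 121 CPM at 24 h. Its groups were apart (log2 fold change -1.61 ± 0.07). Ifi47 averaged 89.8 ± 5.38 CPM at 48 h and 206 ± 6.99 CPM at 24 h, and Tgtp2, a near copy of Tgtp1 whose counts are therefore uncertain, 13.2 ± 1.18 CPM at 48 h and 29.3 ± 3.16 CPM at 24 h. The stretches of Irgm1 and Tgtp2 shown above each carry the element.

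Surface receptors moved in both directions. Homing and chemokine receptors rose at 11 of 22 members and fell at 7. Itgb7, the beta chain that pairs with CD103, had 248, 229, 206 and 225 CPM at 48 h, against 39.5, 40.1, 37.3 and 30 CPM at 24 h. The libraries at 48 h were all far higher, with a log2 fold change of 2.62 ± 0.09 (adjusted p = 5.72e-18, edgeR). S1pr1, the receptor for exit from lymphoid tissue, had 22.1, 22.3, 21.7 and 19.5 CPM at 48 h, against 5.47, 5.89, 6.35 and 4.37 CPM at 24 h. The groups did not overlap (log2 fold change 1.94 ± 0.11). Ccr8, a receptor for CCL1, averaged 1.5 ± 0.367 CPM at 48 h and 13 ± 2.9 CPM at 24 h, and Ccr7, for homing to lymph nodes, 417 ± 33.6 CPM at 48 h and 743 ± 74.4 CPM at 24 h. In the naive and memory list 10 of 27 rose and 12 fell, with a median of 0.02. Those that fell include Bcl6, Satb1, Klf3, Bach2, Foxp1 and Ccr7. Bcl6 averaged 0.529 ± 0.155 CPM at 48 h and 3.79 ± 0.593 CPM at 24 h. Klf2, a quiescence factor that activates S1pr1, had 72.7, 68.1, 55.3 and 61.5 CPM at 48 h, against 22.8, 22.9, 20.6 and 11.9 CPM at 24 h. All libraries at 48 h were higher, and replicate D was the lowest at 24 h (log2 fold change 1.71 ± 0.16). Il7r, the survival receptor of resting cells, averaged 95.2 ± 6.48 CPM at 48 h and 53.6 ± 7.81 CPM at 24 h, and Pecam1, an adhesion molecule, 36.9 ± 1.63 CPM at 48 h and 12.9 ± 0.955 CPM at 24 h. Cytokine receptors rose at 9 of 29 members and fell at 12, beside 30.7% and 32% of all genes tested. Il2ra, the alpha chain of the high-affinity IL-2 receptor, averaged 284 ± 6.86 CPM at 48 h and 458 ± 11.9 CPM at 24 h, Il15ra 9.46 ± 0.565 CPM at 48 h and 35 ± 0.973 CPM at 24 h, Il27ra 104 ± 4.08 CPM at 48 h and 50.7 ± 2.29 CPM at 24 h, and Socs2, a feedback inhibitor of cytokine signals, 57.5 ± 5.09 CPM at 48 h and 7.34 ± 0.507 CPM at 24 h.

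Inhibitory receptor genes included 11 of 25 that fell and 8 that rose. Pdcd1, encoding PD-1, had 21.9, 24.4, 21.7 and 22.3 CPM at 48 h, against 60.6, 62.3, 48.5 and 81.6 CPM at 24 h. The groups were apart, and the 24 h libraries were spread more widely (log2 fold change -1.48 ± 0.12). Lag3 averaged 177 ± 12.4 CPM at 48 h and 382 ± 17.8 CPM at 24 h, and Cd274, encoding PD-L1, 11 ± 0.558 CPM at 48 h and 37.1 ± 1.73 CPM at 24 h. Ctla4, which binds CD80 and CD86, rose and averaged 384 ± 17.2 CPM at 48 h and 284 ± 14 CPM at 24 h. Tox, a factor of persistent antigen exposure, averaged 22 ± 0.496 CPM at 48 h and 23.7 ± 2.12 CPM at 24 h and did not pass (adjusted p = 0.376, edgeR). Lgals3, encoding galectin 3, had 65.1, 56.4, 54.2 and 45.6 CPM at 48 h, against 11.6, 12.5, 13.1 and 6.12 CPM at 24 h. Replicate D was the lowest of each group, and the groups did not overlap (log2 fold change 2.33 ± 0.20). Cd68, a lysosomal protein abundant in macrophages and a member of the myeloid list, averaged 21.6 ± 1.13 CPM at 48 h and 11.5 ± 1.57 CPM at 24 h. Costimulatory genes fell at 11 of 22 and rose at 6. Tnfrsf9, encoding the receptor 4-1BB, averaged 78.8 ± 6.51 CPM at 48 h and 216 ± 11.1 CPM at 24 h. The S100 and annexin list had 10 of 15 higher and 2 lower. Vim, the intermediate filament protein vimentin, had 758, 686, 615 and 682 CPM at 48 h, against 108, 101, 109.6 and 101 CPM at 24 h. The groups were far apart (log2 fold change 2.71 ± 0.09).

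The change with time under DON was set against the change in vehicle cells over the same hours, with the difference between the changes tested in the same fit. It passed at 6583 genes (38.8%), and the DON change was the higher at 2990 (17.6%) and the lower at 3593 (21.2%). The most negative difference among the genes chosen was that of Chac1, -3.85 ± 0.37 on the log2 scale (adjusted p = 1.67e-08, edgeR), with 6.18 ± 0.675 CPM in vehicle cells at 48 h and 5.68 ± 1.69 CPM at 24 h. Nupr1, Hemgn, Mfsd2a, Iigp1 and Lif followed, at -2.76, -2.62, -2.42, -2.35 and -2.33. Chac1 and Nupr1 were low in DON cells and reached the mean level required for this choice only through other conditions. Hemgn, a nuclear protein of blood cells, rose in both conditions and rose more in vehicle cells. The most positive difference was that of Itgae, 4.20 ± 0.26, with 1.08 ± 0.225 CPM in vehicle cells at 48 h and 1.41 ± 0.19 CPM at 24 h. Tspoap1, Il2, Lgals3, Cdh23 and Btg2 followed, at 3.07, 2.95, 2.93, 2.56 and 2.55. Il2 fell in both conditions, by 4.57 in DON cells and by 7.52 in vehicle cells on the log2 scale. Ifng also fell in both, with a difference of -1.65 ± 0.34, and so did Prf1, with -0.66 ± 0.14.

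Several groups that fell under DON had a lower change there than in vehicle cells. In ribosome biogenesis 33 of 38 genes had a lower change under DON and 1 a higher, with medians of -0.80 in DON and -0.19 in vehicle cells. In the cholesterol list 18 of 24 were lower and none higher, at medians of -0.23 in DON and 0.16 in vehicle cells. Among synthetases 15 of 19 were lower and 1 higher, and among amidotransferases 7 of 10 were lower and none higher. In the DNA replication list 28 of 43 were lower and 2 higher, while in mitosis and spindle genes 24 of 41 were higher and 1 lower. Of the effector factors 17 of 29 were lower and 1 higher. Tbx21 fell by 1.88 in DON cells and by 0.24 in vehicle cells on the log2 scale, a difference of -1.64 ± 0.13 (adjusted p = 3.75e-10, edgeR). Gzmb stood at 5355 ± 656 CPM in vehicle cells at 48 h and 4912 ± 598 CPM at 24 h, and its difference was -1.45 ± 0.21. Hk2 had a difference of -1.66 ± 0.10, Il2ra of -1.59 ± 0.10 and Mir17hg, the host transcript of a microRNA cluster, of -2.08 ± 0.16. Differences for Klf2 and S1pr1 were 1.58 ± 0.25 and 1.86 ± 0.15, and vehicle changes of 0.13 ± 0.19 and 0.08 ± 0.11 did not pass. Chemokines showed 3 of 10 with a higher change under DON and 1 lower, at medians of -3.24 in DON and -3.34 in vehicle cells. In type I interferon genes 19 of 39 were lower and 5 higher.

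The same difference against glutamine-free cells passed at 6782 genes (39.9%), with 3124 higher (18.4%) and 3658 lower (21.5%) under DON. All 41 tested mitosis and spindle genes and all 43 replication genes had a lower change under DON. Of 20 G1 cyclins and cyclin-dependent kinase inhibitors, 9 had a lower and 1 a higher change. Plk1, Fam83d, which positions the spindle, and Depdc1b had differences of -3.81, -3.72 and -3.61. Ccnb2 held 109 ± 4.38 CPM in glutamine-free cells at 48 h and 2.8 ± 0.349 CPM at 24 h, beside 97.8 ± 2.84 CPM at 48 h and 24.9 ± 1.02 CPM at 24 h in DON cells. Mki67 held 775 ± 75.3 CPM at 48 h and 63.8 ± 13.1 CPM at 24 h without glutamine, a change of 3.60 ± 0.14 on the log2 scale. Its difference of change was -3.51 ± 0.19 (adjusted p = 1.78e-13, edgeR).

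Amino acid response genes also differed. Nupr1 fell by 1.81 on the log2 scale under DON and rose by 3.07 ± 0.15 without glutamine, a difference of -4.88 ± 0.33. Chac1 stood at 21.4 ± 1.46 CPM in glutamine-free cells at 48 h and 19.3 ± 0.548 CPM at 24 h, with a difference of -3.89 ± 0.36. Trib3 stood at 260.2 ± 5.34 CPM at 48 h and 170.2 ± 20.1 CPM at 24 h without glutamine, and Asns at 411 ± 5.13 CPM at 48 h and 347 ± 15.9 CPM at 24 h, also without glutamine. In the ATF4 list 17 of 32 members were lower under DON and 1 higher, at medians of -0.52 in DON and 0.01 in glutamine-free cells. Atp2b4, a plasma membrane calcium pump, had a difference of -3.53. Positive differences were led by Lgals3, Izumo1r, Mxd4, Lzts2, Slfn1 and Ifi209, at 3.42, 3.12, 2.74, 2.70, 2.69 and 2.66. Itgae rose in both conditions, with a difference of 1.52 ± 0.25. In cholesterol synthesis 5 of 24 were lower, near the 21.5% of all genes tested, and 1 was higher, beside 18.4% of all genes. The medians were -0.23 in DON and -0.48 in glutamine-free cells. Tbx21 had a difference of -1.51 ± 0.13 and Eomes of -1.91 ± 0.14. Kdm6b, a demethylase of H3K27, fell by 1.64 under DON, with a difference of -0.83 ± 0.11, and Phf19, a Polycomb accessory protein, rose by 1.27, with a difference of -0.88 ± 0.09.

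DON libraries were also made at 4 h, and their levels give the earlier course as a description, without a test. The 4 h values were scaled with TMM factors computed on a wider set of libraries, so small differences from the later times cannot be read. Ifng averaged 814 ± 108 CPM at 4 h, 132 ± 14.8 CPM at 24 h and 1.53 ± 0.479 CPM at 48 h (SD, n = 4 each), a decline across the series. Irf4 likewise averaged 1339 ± 77.9, 506 ± 23 and 149 ± 8.34 CPM at these times, and Nolc1 1221 ± 67.8, 598 ± 59.2 and 268 ± 12.2 CPM. Gzmb was highest at 24 h, with 291 ± 25.3, 2063 ± 145 and 824 ± 67.8 CPM. Asns had the same order, with 21.7 ± 1.33, 48.4 ± 7.91 and 28.1 ± 3.36 CPM, and so had Mcm7, with 89 ± 7.88, 497 ± 27.5 and 278 ± 12 CPM. Ccnb2 climbed, with 3.61 ± 1.47, 24.9 ± 1.02 and 97.8 ± 2.84 CPM. Itgae and Ltb were lowest at 24 h: Itgae averaged 14.5 ± 1.41, 2.66 ± 0.318 and 37.5 ± 6.58 CPM, and Ltb 401 ± 27.7, 23.3 ± 2.01 and 233 ± 26.4 CPM.

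The repressive mark H3K27me3 was profiled at 48 h, and the authors' peak list for DON cells held 3533 peaks over 21.8 Mb. A peak lay within 1000 bases of the gene's start at 4.12% of the genes that rose between 24 h and 48 h, at 3.29% of those that fell and at 4.71% of those that did not pass, against 4.07% of all genes tested. The list for vehicle cells held 13556 peaks over 65.0 Mb, and the shares were 11.3%, 10.4%, 12.3% and 11.4% in the same order of gene classes. Genes that changed at least 2-fold carried a peak more often than all genes, with 7.72% of those that rose and 7.64% of those that fell on the DON list, and 19.7% and 20.2% on the vehicle list. These genes were also at lower levels, with a median at 48 h of 2.39 CPM for those that rose and 0.645 CPM for those that fell, beside 12.3 CPM over all genes tested, and the part of level in these shares was not tested. No list of this mark at 24 h was used here, so the change of the mark with time was not tested.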

How the data were processed

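RNA was measured in 52 libraries in 13 groups of 4, and 24 of them (DON, glutamine-free and vehicle cells at 48 h and 24 h) entered the fit. The authors deposited whole-number counts per gene for 55487 genes, made with featureCounts 2.0.1 on exons of GENCODE M25 (mm10) from filtered paired-end alignments, per the file headers, with no strand option although the labels' protocols describe stranded libraries. STAR and FastQC are named without a version in the submitters' processing notes. Of the gene IDs, 54349 have a symbol and 209 share one. The 37 mitochondrially encoded genes have 0 counts in every library. The authors' deposited H3K27me3 peak lists carry an IDR score per peak, from 2 replicates merged at an IDR of 0.05, per the file headers and layout, and only the peak positions were used.

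The counts were fitted as deposited with edgeR 4.0.16 in R 4.3.3 (TMM scaling, filterByExpr, 1 mean per group, robust quasi-likelihood test, Benjamini-Hochberg adjustment over all 16988 genes, threshold 0.05), with a common biological coefficient of variation of 0.0954. The differences of change are interaction contrasts of the same fit. The fit was tested on simulated data with known changes. Symbols came from a reference table of gene names, exon overlap from the exon coordinates of the count table, and promoters from RefSeq (GRCm38.p6). Tables and plots were made in Python 3.11.15 with pandas 2.3.3 and matplotlib 3.10.9. Libraries held 25.6 to 48.2 M counts, and no 2 replicates were alike enough to be counted as 1.

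Genes named include the 12 largest changes in each direction and the 6 largest differences in each direction and comparison. They were taken among genes whose mean log2 CPM over the 24 libraries of the fit reached 3 (and, for the changes, whose DON groups did not overlap). Chac1 and Nupr1 reached this mean only through conditions other than DON. Also named are a panel of known genes and, from every list, the 4 members that ranked first by adjusted p. The text describes a selection of these, and some are not reported here. The members and lists were chosen with earlier results of these data known. Alternatives were RLE factors, library totals, no filter, DESeq2 1.42.0, a replicate block, other sets of libraries, and leaving out each library. CUT&RUN of other marks was not used here, and RNA libraries of other drugs entered only the fit on all 52 libraries.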

Additional observations from a re-analysis of the deposited data

Results flagged for a closer look

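In 26 of the 342 groups of 4 libraries that were examined for named genes, 1 library stood apart from the others by Dixon's criterion, which chance alone meets in about 1 in 20 groups. Most of these cases were in replicate D of DON at 24 h, the shallowest of the DON libraries. There it was the highest of its group for genes of amino acid charging, nucleotide synthesis, sterol synthesis and protein folding. Rars had 319 against 242 to 251 CPM in the other replicates, Tars 244 against 220.1 to 223 CPM, Ppat 216 against 177 to 179.6 CPM, Gmps 243 against 173 to 179 CPM and Ctps 214 against 191 to 194 CPM. Hmgcs1 had 169 against 112 to 115 CPM, Slc16a1 159 against 130.1 to 133 CPM, Hspa5 964 against 736 to 767 CPM, Mfsd2a 17.6 against 13 to 13.6 CPM and Gtse1 43.7 against 40.1 to 40.3 CPM. The same library was the lowest of its group for Stat5a, with 191 against 234 to 237 CPM, Batf3, with 12.3 against 17.6 to 18.1 CPM, Cd69, with 172 against 192 to 192 CPM, Bcl2l11, with 110.1 against 116 to 117 CPM, Atp2b4, with 23.8 against 29.4 to 30.6 CPM, and Snhg8, a small nucleolar RNA host transcript, with 149.8 against 201 to 205 CPM.

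Other libraries stood apart for 1 to 4 genes each. Replicate C of DON at 48 h was apart for Ctla2a, with 21.8 against 18 to 18.3 CPM, Cxcl10, with 1.94 against 1.16 to 1.24 CPM, Slfn2, with 146 against 137 to 139 CPM, and Plk1, with 95.5 against 105 to 105 CPM. Replicate D of DON at 48 h was low for S100a6, with 17.6 against 25 to 25.9 CPM, and for Nupr1, with 0.223 against 0.281 to 0.293 CPM, and replicate B of DON at 48 h was low for Kdm6b, with 7.64 against 8.79 to 9.01 CPM. At 24 h replicate B was apart for Crabp2, with 126 against 115 to 116 CPM, and for Ctla4, with 263 against 289 to 293 CPM, and replicate A for Cdh23, with 7.23 against 6.75 to 6.8 CPM.

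The change with time differed between DON and vehicle cells at 6583 genes, by the interaction test of edgeR. The largest differences among named genes, as the DON change minus the vehicle change on the log2 scale, were 4.20 for Itgae, 3.07 for Tspoap1, 2.95 for Il2, 2.93 for Lgals3, 2.56 for Cdh23 and 2.55 for Btg2 on the positive side. On the negative side they were -3.85 for Chac1, -2.76 for Nupr1, -2.62 for Hemgn, -2.42 for Mfsd2a, -2.35 for Iigp1 and -2.33 for Lif. Between DON and glutamine-free cells 6782 genes differed. There the differences were 3.42 for Lgals3, 3.12 for Izumo1r, 2.74 for Mxd4, 2.70 for Lzts2, 2.69 for Slfn1 and 2.66 for Ifi209, and -4.88 for Nupr1, -3.89 for Chac1, -3.81 for Plk1, -3.72 for Fam83d, -3.61 for Depdc1b and -3.53 for Atp2b4. Every one of these 24 differences passed the adjusted threshold.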

How the results depend on the processing

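The counts of changed genes stayed within 1.5 times the reported ones under every alternative run. For DON at 48 h against 24 h, leaving out each library gave 10050 to 10354 genes, and the other 10 alternatives gave 10205 to 11264. The difference from vehicle passed at 6029 to 7649 genes when each library was left out, the highest without replicate C of vehicle at 48 h, and at 5671 to 6864 under the other 7 alternatives. The difference from glutamine-free cells passed at 6295 to 6636 and at 5886 to 7891 genes. DESeq2 called 10714, 6864 and 7071 genes in these 3 comparisons, and the fit on all 52 libraries called 10466, 5671 and 5886. That fit moved the median log2 change of all genes under DON to -0.114, against -0.008 in the 24 libraries. Alternatives for the vehicle and glutamine-free changes were added after seeing the data and gave 6074 to 7097 and 8701 to 9805 genes.

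The letters A to D did not pair the DON libraries: same-letter deviations correlated at 0.41, 0.27, -0.13 and 0.19 for A, B, C and D over 9275 genes, and replicate A at 48 h correlated best with replicate B at 24 h (0.49). With the replicate block, 10717 genes passed for DON, 6620 for the difference from vehicle and 6838 for that from glutamine-free cells. With the 8 DON libraries alone, 10798 passed, and 10917 with the block.

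Of 3630 values of 171 genes under the alternatives, 3617 kept their direction and their side of the threshold and none reversed. The B cell genes Cd79b and Ighd no longer passed in the fit on all 52 libraries. Slfn1, at an adjusted p of 0.0559, passed in 7. Of 1764 counts of list members, 1708 stayed within 1.5 times, and most of the other 56 were counts of a few members. Ribosomal proteins higher at 48 h numbered 20, and 8 to 10 without the filter, with DON and vehicle libraries alone, or without replicate A of DON at 48 h or D of DON at 24 h. Respiratory chain genes higher at 48 h numbered 21, and 10 to 13 without the filter, with DON and vehicle libraries alone, or without replicate C of DON at 24 h. The causes were not tested. CPM values near the floor of 3 counts per library, such as those of Il3 at 48 h, carry a wide counting error.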

Other observations

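Counts for several further groups between 24 h and 48 h of DON stand beside the 30.7% of all genes tested that rose and the 32% that fell. Of 23 replication-dependent histone genes tested, 10 fell and 2 rose, with a median log2 change of -0.67 in DON cells, beside 0.74 in glutamine-free and -1.60 in vehicle cells. Their summed level was nevertheless higher, at 70.3 to 81.3 CPM at 48 h and 42.4 to 53.3 CPM at 24 h, and the 2 that rose were Hist1h4i, at 44.3 ± 3.08 CPM at 48 h and 23.4 ± 3.17 CPM at 24 h, and Hist1h1c, at 19.8 ± 1.41 CPM at 48 h and 6.22 ± 0.813 CPM at 24 h. These transcripts lack poly(A) tails in dividing cells, and how the libraries captured them is not given in the sources used here. Of 22 tricarboxylic acid cycle genes 8 were higher and 8 lower, shares near those of all genes. Among enzymes of glutamate metabolism 4 of 14 rose, including Glud1 and Got2, which carry glutamate nitrogen and carbon into and out of the cycle, and 7 fell. Noncoding RNAs and host transcripts of small nucleolar RNAs rose at 7 of 17 members and fell at 4. Snhg8 had 542, 514, 484 and 475 CPM at 48 h, against 201, 205, 204 and 149.8 CPM at 24 h, and its groups did not overlap (log2 fold change 1.41 ± 0.14, adjusted p = 6.40e-09, edgeR).

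Among 20 enzymes that write, erase or support H3K27 marks, 9 fell and 4 rose. Phf19, which helps Polycomb complexes bind chromatin, had 127, 127, 116 and 121 CPM at 48 h, against 50.8, 51.7, 48.9 and 52.4 CPM at 24 h. All libraries at 48 h were higher than all at 24 h. Kdm6b, a demethylase, had 8.97, 7.64, 8.79 and 9.01 CPM at 48 h, against 26.9, 22.8, 26.8 and 31 CPM at 24 h, the groups again apart and in the other direction. Of 9 NK-type receptors tested, 2 rose and 3 fell, again near the shares of all genes, and of 5 CD4 T cell markers, 1 rose and 3 fell.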
